A study of Mus musculus with 3 samples.

Results

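The unfolded protein response and the ATF4 branch of the stress response were followed through 10 genes of the 23421 in the deposited table: *Hspa5*, *Hsp90b1*, *Xbp1*, *Atf4*, *Ddit3*, *Asns*, *Trib3*, *Chac1*, *Herpud1* and *Psat1*. They were chosen by symbol, each symbol matched 1 row, and all 10 had a value above 0 in every library. RNA came from E6.5 mouse embryos labelled as strain 129/SvEv, obtained by crossing tw18/+ parents, with 1 library each of wild type, tw18/+ and tw18/tw18. The paper mentions genetic backgrounds that were not inbred and varied between embryos. It also describes mutant embryos stained at this age as slightly younger. Background and stage cannot be told apart from genotype in these libraries. The tw18 allele is a t haplotype with a large deletion on chromosome 17, which takes out *Ppp2r1a*, the scaffold subunit of the PP2A phosphatase, along with other genes. Neither the labels nor the methods state how many embryos were used for a library. With 1 library per genotype there was no replicate check of any difference, and no p-value is given.

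When unfolded proteins collect in the endoplasmic reticulum (ER), the membrane sensors IRE1, PERK and ATF6 respond. IRE1 splices the *Xbp1* mRNA, ATF6 is cut to release a transcription factor, and PERK phosphorylates the translation factor eIF2, which lowers protein synthesis but favours translation of ATF4. ATF4 is also reached by other eIF2 kinases, among them GCN2, which responds to lack of amino acids, and it raises the transcription of genes for amino acid synthesis and uptake. Rapidly growing embryonic tissue makes much secreted and membrane protein, and visceral endoderm is a secretory epithelium.

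The most abundant of the 10 genes were the ER chaperones, which differed little between the genotypes. Levels are FPKM, the fragments on a gene divided by its transcript length and by the size of the library. *Hspa5* (BiP) was at 251 in wild type against 267 in tw18/tw18, and *Hsp90b1* (GRP94) at 310 against 353. *Asns* was higher in tw18/tw18, at 65.8 against 44.1, whereas *Atf4* was lower in both mutant genotypes, at 48.9 in tw18/tw18 and 53.2 in tw18/+ against 74.2 in wild type. *Ddit3*, *Trib3* and *Chac1*, genes that rise strongly during lasting stress, were at or under 2.24 FPKM in all 3 libraries. Among the 7 genes that reached 5 FPKM in a library, 0 differed by 2-fold in any of the 3 comparisons. Of all genes at that level, 13.1% did so between tw18/tw18 and wild type, 2.75% between tw18/+ and wild type and 12.4% between tw18/tw18 and tw18/+, so that 0 of 7 is near the background.

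Promoter sequence was examined because these genes are known for shared response elements. For that reason their share of matches, given beside that of all promoters, is a description and not a test. RefSeq promoters of assembly GRCm38.p6 were found for 10 of 10 genes, from base -250 to base 49 with the start site as base 0, and were searched on both strands. The ER stress element was searched as CCAAT and CCACG spaced by 9 bases of any kind. It was present in the promoters of *Hspa5* and *Hsp90b1*, which are printed here because they are the only members of the 10 with a match, with 30 bases or fewer on either side and the matches in capitals. *Hspa5* (chr2:34772020-34772048, plus strand) held 1 forward match at bases -65 to -47. *Hsp90b1* (chr10:86705513-86705686, minus strand) held 1 forward match at bases -212 to -194 and 1 reverse match at bases -107 to -89. Both are written 5′ to 3′ along the strand of the gene.
Hspa5: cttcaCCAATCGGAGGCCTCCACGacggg
Hsp90b1: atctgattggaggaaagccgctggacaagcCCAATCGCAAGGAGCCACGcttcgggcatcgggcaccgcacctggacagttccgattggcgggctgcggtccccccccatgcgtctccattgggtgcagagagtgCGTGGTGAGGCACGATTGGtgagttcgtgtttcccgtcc

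This element is rare in promoters of the same length. It was held by 39 of 32851 RefSeq promoters (0.119%), which belonged to 37 of 27025 genes (0.137%). Of the 24 genes with a match that were in the table, 9 were either *Hspa5* or *Hsp90b1* or belonged to the lists of ER chaperones and of ER-associated degradation described below, among them *Calr*, *Canx*, *Creld2*, *Dnajc3*, *Pdia6* and *Syvn1*. The related UPR element TGACGTGG was held by 0.676% of promoters, by 0.714% of genes and by 0 of the 10 genes.

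The C/EBP-ATF element, to which ATF4 binds with a C/EBP partner, was searched as TGATGNAA. It does not overlap the other elements in the promoters printed. A match was found in 4 of the 10 genes, beside 4.51% of all genes with a promoter and 3.97% of all promoters. *Trib3* held it in reverse at bases 14 to 21, downstream of the RefSeq start site. The other 3 matches lay upstream of the RefSeq start of their gene and are printed for that reason. By the gene coordinates given below, which come from another annotation, the *Trib3* match lies upstream of its gene. In those coordinates the *Asns* match lies inside the gene, as does the ER stress element of *Hspa5*. *Chac1* (chr2:119351019-119351076, plus strand) had a reverse match at bases -193 to -186, *Asns* (chr6:7693214-7693243, minus strand) a forward match at bases -23 to -16, and *Herpud1* (chr8:94386287-94386344, plus strand) a reverse match at bases -112 to -105. A match of letters is a description of the sequence, and binding was not measured.
Chac1: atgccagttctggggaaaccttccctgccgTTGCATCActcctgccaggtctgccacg
Asns: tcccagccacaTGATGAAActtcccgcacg
Herpud1: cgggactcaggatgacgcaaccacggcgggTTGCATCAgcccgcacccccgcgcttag

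**Figure D1:**
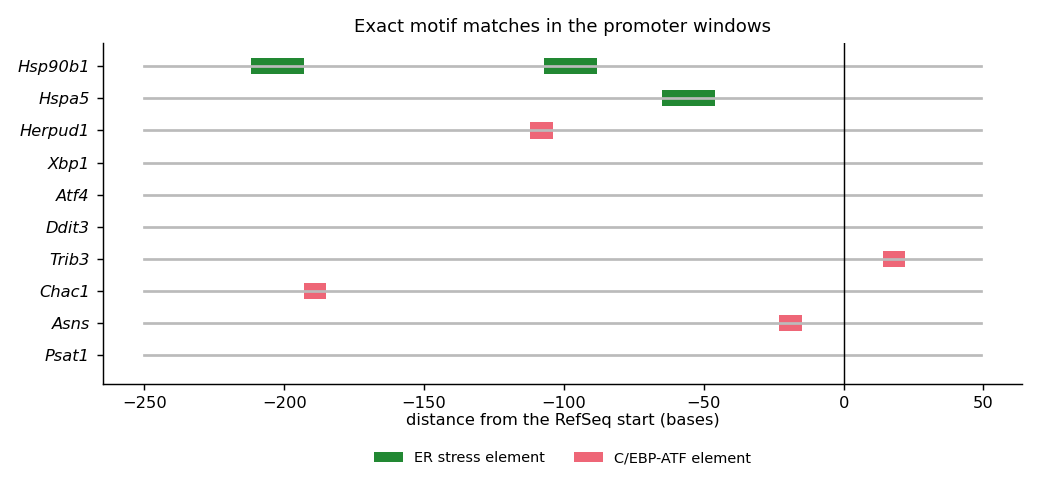
Positions of the searched elements in the promoters of the 10 genes, as distance in bases from the RefSeq start site. *Hspa5* has 1 ER stress element and *Hsp90b1* has 2, while *Chac1*, *Trib3*, *Asns* and *Herpud1* each have 1 C/EBP-ATF element.

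The libraries differed in depth and in cell type markers. The spacing of the lowest FPKM values, in which single fragments can be told apart, put the depth of tw18/+ at 1.41 times and that of tw18/tw18 at 1.40 times the depth of wild type. Fragment numbers and intervals below rest on this estimate. They cover counting error only, not the spread between embryos, and PCR copies of a molecule cannot be told from separate molecules. *Ppp2r1a* was highest in wild type (146 FPKM), lower in tw18/+ (81.7) and lowest in tw18/tw18 (12.8). This is the order of the labels, but a library made only of cells homozygous for the deletion would hold none of this mRNA, and the source of the remaining fragments was not tested. In the text, tw18/tw18 stands for the library with that label. FPKM is relative to the rest of a library, and the summed FPKM was lowest in tw18/tw18, at 383409 against 444064 in wild type. Scaling to equal sums would raise every log2 ratio of tw18/tw18 to wild type by 0.21 and to tw18/+ by 0.25.

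The labels call the tissue epiblast, while the methods describe the embryo proper, which includes visceral endoderm, and the data held markers of both and of further tissues. The 9 epiblast markers summed to 1802 FPKM in wild type, 1913 in tw18/+ and 946 in tw18/tw18, and 4 of the 9 were lower in tw18/tw18 than in wild type by 2-fold or more. The 11 visceral endoderm markers summed to 910.5, 895 and 1179 in the same order. Extra-embryonic ectoderm markers were higher in tw18/tw18 than in wild type by 2-fold or more for 6 of 7 genes (sums 94.0, 99.1 and 191). So were 5 of 7 parietal endoderm markers (329, 382 and 758), 5 of 7 endothelium markers (39.1, 26.0 and 84.5) and 10 of 11 decidua and stroma markers. All 7 extra-embryonic ectoderm, all 7 parietal endoderm and all 7 endothelium markers lay above wild type. Of all genes tested, 15.1% were higher and 6.94% lower by 2-fold or more. Without the decidual gene *Prl8a2*, at 1504, 155 and 377 FPKM, the decidua and stroma markers summed to 132, 179 and 718. The trophoblast giant cell list summed to 124.5, 75.7 and 237, with its markers *Prl3b1* and *Ctsq* listed at 0 throughout, and the immune list to 23.6, 15.2 and 30.4. Both lists held 1 gene higher and 1 lower by 2-fold or more in tw18/tw18 than in wild type, of 3 and 6 tested. Of the erythroid markers, summing to 52.5, 56.3 and 177, the embryonic globins *Hbb-bh1*, *Hbb-y* and *Hba-x* were listed at 0 in every library. *Hba-a1*, at 52.2, 27.1 and 0.0070 FPKM, and *Hba-a2*, at 0.020, 26.9 and 127, ran in opposite orders. The part of these tissues in the differences below was not tested. In such bulk samples, fewer cells of a type and less RNA per cell cannot be told apart.

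The chaperones were considered first. *Hspa5*, the main ER chaperone of the HSP70 family and a repressor of the sensors when unfolded protein is scarce, lies on chromosome 2 from 34771970 to 34777547 (GRCm38) and has 8 exons. Its FPKM was 251 in wild type, 251 in tw18/+ and 267 in tw18/tw18, from about 9142, 12892 and 13540 fragments. The log2 ratio of tw18/tw18 to wild type was 0.086 (95% counting interval 0.048 to 0.12) and that of tw18/+ to wild type was -0.0028 (-0.042 to 0.036). *Hspa5* was thus the 228th, 236th and 184th most abundant gene of the 3 libraries.

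*Hsp90b1*, the HSP90 paralog of the ER and the member with ER stress elements in both orientations, lies on chromosome 10 from 86690209 to 86705509. Wild type was at 310 FPKM, tw18/+ at 347 and tw18/tw18 at 353. Both mutant libraries were above wild type, by a log2 ratio of 0.16 (0.13 to 0.20) in tw18/+ and 0.19 (0.16 to 0.22) in tw18/tw18. The ratio between them, 0.026, had a counting interval from -0.0024 to 0.055. *Hsp90b1* overlaps *1810014B01Rik* on the opposite strand over 4598 bp, which had an FPKM of 5.99, 4.80 and 1.48, and 2.96% of its 50-base words occur in other genes.

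*Herpud1*, an ER membrane protein that takes part in ER-associated degradation, was intermediate in abundance. It lies on chromosome 8 from 94386438 to 94395377 and was at 8.51 FPKM in wild type, 5.32 in tw18/+ and 7.64 in tw18/tw18. The lowest value was that of tw18/+, with a log2 ratio to wild type of -0.68 (-0.96 to -0.39). In tw18/tw18 the ratio to wild type was -0.16 (-0.41 to 0.10), which turned to 0.055 with equal FPKM sums. *Herpud1* shares 535 bp with the antisense gene *Gm15890*.

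*Xbp1* encodes the transcription factor of the IRE1 branch and lies on chromosome 11 from 5520659 to 5525893. The values of the table are per gene and do not separate the spliced from the unspliced mRNA, so splicing by IRE1 was not measured. The level of *Xbp1* was 35.9 FPKM in wild type, 28.9 in tw18/+ and 43.6 in tw18/tw18. The mutant genotypes therefore lay on opposite sides of wild type. The log2 ratio was -0.31 (-0.43 to -0.19) in tw18/+ and 0.28 (0.17 to 0.39) in tw18/tw18, and 0.59 (0.49 to 0.70) between tw18/tw18 and tw18/+.

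*Atf4*, whose protein is controlled mainly through translation, lies on chromosome 15 from 80255184 to 80257541. Its FPKM was 74.2 in wild type, 53.2 in tw18/+ and 48.9 in tw18/tw18, from 1724, 1749 and 1587 fragments. The level was thus lower with each tw18 allele, an order shared by 2 of the 10 genes, the other being *Trib3*, while *Hsp90b1* ran in the opposite order. The log2 ratio to wild type was -0.48 (-0.57 to -0.38) in tw18/+ and -0.60 (-0.70 to -0.50) in tw18/tw18, so *Atf4* was under the 2-fold threshold in both. The mutant libraries differed less from each other, by -0.12 (-0.22 to -0.023), and this ratio turned to 0.12 with equal FPKM sums.

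*Ddit3* encodes CHOP, the transcription factor tied to cell death in lasting ER stress, and lies on chromosome 10 from 127290774 to 127296288. Its level was 2.24 FPKM in wild type, 0.893 in tw18/+ and 0.958 in tw18/tw18. These values rest on about 25, 14 and 15 fragments, and the counting interval of the level was 1.48 to 3.38 FPKM in wild type, 0.496 to 1.52 in tw18/+ and 0.551 to 1.62 in tw18/tw18. *Ddit3* was lower than wild type by a log2 ratio of -1.33 (-2.39 to -0.34) in tw18/+ and -1.23 (-2.25 to -0.24) in tw18/tw18. The intervals reach from a small to a more than 4-fold difference. The annotation holds another gene model of the same name on the same strand, which shares 3.27% of the 50-base words, and *Mars* overlaps on the opposite strand by 68 bp.

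*Trib3* and *Chac1* are induced by ATF4 with CHOP. *Trib3* encodes a pseudokinase that restrains ATF4 and lies on chromosome 2 from 152337422 to 152344032. *Trib3* was at 2.15, 1.998 and 1.98 FPKM in wild type, tw18/+ and tw18/tw18. Its log2 ratios to wild type of -0.11 in tw18/+ (-0.62 to 0.39) and -0.12 in tw18/tw18 (-0.63 to 0.39) were not distinguishable from 0 at this depth, and the latter turned to 0.093 with equal FPKM sums.

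*Chac1*, an enzyme that degrades glutathione, lies on chromosome 2 from 119351229 to 119354381. Its level was 1.94 FPKM in wild type, 0.793 in tw18/+ and 1.66 in tw18/tw18, from about 43, 25 and 51 fragments. Only the tw18/+ value stood apart, with a log2 ratio to wild type of -1.29 (-2.05 to -0.54), and tw18/tw18 was higher than tw18/+ by 1.07 (0.33 to 1.80). Between tw18/tw18 and wild type the log2 ratio of *Chac1* was -0.22 (-0.85 to 0.39).

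The amino acid enzymes *Asns* and *Psat1* moved in opposite directions. *Asns*, asparagine synthetase, a well-known ATF4 target, lies on chromosome 6 from 7675169 to 7693254. *Asns* was at 44.1 FPKM in wild type, 41.5 in tw18/+ and 65.8 in tw18/tw18, and its rank by abundance was 1694, 1852 and 971. Wild type and tw18/+ were close, with a log2 ratio of -0.087 (-0.20 to 0.022), and tw18/tw18 was higher than both, by 0.58 (0.48 to 0.68) over wild type and 0.66 (0.57 to 0.76) over tw18/+.

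*Psat1*, phosphoserine aminotransferase of the serine synthesis pathway, lies on chromosome 19 from 15904678 to 15947337. *Psat1* was at 47.1 FPKM in wild type, 49.9 in tw18/+ and 38.7 in tw18/tw18. The tw18/tw18 library had the lowest value, by a log2 ratio of -0.29 (-0.38 to -0.19) to wild type and -0.37 (-0.45 to -0.28) to tw18/+. With equal FPKM sums these ratios were -0.073 and -0.12, both smaller in size and outside the counting intervals. The pseudogene *Gm3329* overlaps *Psat1* on the opposite strand by 556 bp.

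**Figure D2:**
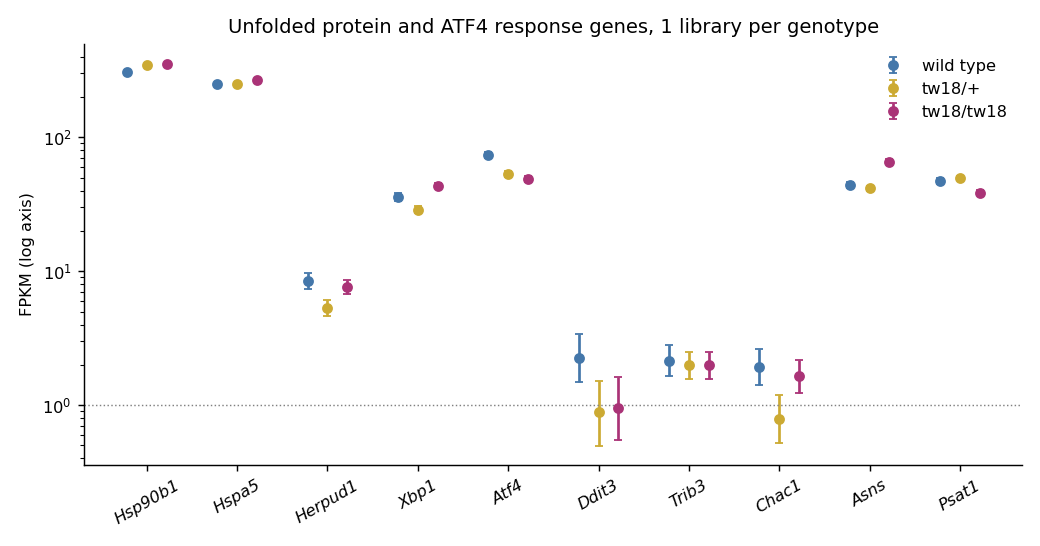
FPKM of the 10 genes in the 3 libraries, on a log axis, with 95% intervals for counting error and a dotted line at 1 FPKM. *Hspa5* and *Hsp90b1* lie between 251 and 353, and *Ddit3*, *Trib3* and *Chac1* lie at or under 2.24.

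In wild type the levels ran, from the highest, *Hsp90b1*, *Hspa5*, *Atf4*, *Psat1*, *Asns*, *Xbp1*, *Herpud1*, *Ddit3*, *Trib3* and *Chac1*, over a 160-fold range. The counting intervals of the last 3 overlapped, as did those of *Psat1* (44.9 to 49.4 FPKM) and *Asns* (41.6 to 46.6 FPKM). In tw18/tw18 *Asns* stood above *Atf4*, at 65.8 and 48.9 FPKM. The summed FPKM of the 10 genes was 777 in wild type, 781 in tw18/+ and 830 in tw18/tw18, of which *Hspa5* and *Hsp90b1* together held 561, 598 and 620.

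No pattern across the 3 genotypes was common to the 10 genes. The highest value was in wild type for 5 genes, in tw18/tw18 for 4 (*Hspa5*, *Hsp90b1*, *Xbp1* and *Asns*) and in tw18/+ for 1 (*Psat1*), and 6 genes had their lowest value in tw18/+. The 3 genes that fell short of 5 FPKM in every library were all highest in wild type. The genes lowest in tw18/+ were *Hspa5*, *Xbp1*, *Herpud1*, *Ddit3*, *Chac1* and *Asns*. *Atf4*, *Trib3* and *Psat1* were lowest in tw18/tw18, and *Hsp90b1* was lowest in wild type. Some of these orders lay within counting error. The intervals between tw18/+ and wild type included 0 for *Hspa5* (-0.042 to 0.036) and *Asns* (-0.20 to 0.022). Those between tw18/tw18 and tw18/+ did so for *Ddit3* (-1.03 to 1.28) and *Trib3* (-0.47 to 0.47). The share of all genes lowest in tw18/+ was not determined, so the counts are a description only.

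For the count of genes that differed, a gene was called at a fold of 2 or more where the higher FPKM of the pair was at least 1. Between tw18/tw18 and wild type, 0 of the 10 genes were higher and 1 was lower (*Ddit3*), against 15.1% higher and 6.94% lower of the 12917 genes tested. Their median log2 ratio was -0.14, and that of all genes tested was -0.0081. The median of all genes fell with level, from 0.44 at 1 to 2 FPKM to -0.36 at 200 to 500 FPKM. With equal FPKM sums, which add 0.21 to each ratio, the median of the 10 genes would lie above 0. The median size of the difference, regardless of sign, was 0.25 for the 10 genes and 0.45 for all genes. Of the 7 genes that reached 5 FPKM in the pair 0 were called, with log2 ratios from -0.60 to 0.58, where 13.1% of all 9289 such genes were called in either direction.

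Between tw18/+ and wild type, 0 of the 10 genes were higher and 2 were lower, *Ddit3* and *Chac1*, against 4.7% higher and 5.02% lower of 12426 genes. The log2 ratio was below 0 for 8 genes and above 0 for *Hsp90b1* and *Psat1*. Their median was -0.21 and that of all genes 0.0029. Of the 7 genes at 5 FPKM or more 0 were called, with ratios from -0.68 to 0.16, where 2.75% of 8763 genes were.

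Between tw18/tw18 and tw18/+, 9 of the 10 genes were tested, since *Ddit3* was under 1 FPKM in both. Of these, 1 was higher (*Chac1*) and 0 were lower, where 14.9% of 12846 genes were higher and 5.65% lower. The median log2 ratio was 0.089, against 0.0063 for all genes. The 7 genes at 5 FPKM or more had ratios from -0.37 to 0.66 and 0 of them were called, against 12.4% of 9200 genes. The comparisons share libraries, so the calls for *Ddit3* in both mutants rest on the same wild type value, and those for *Chac1* on the same tw18/+ value.

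All calls fell on genes with few fragments. Among genes tested that did not reach 5 FPKM, 44.9% were called in either direction between tw18/tw18 and wild type, 26.4% between tw18/+ and wild type and 40.9% between tw18/tw18 and tw18/+. With 1 added to each FPKM before the logarithm, 0 of the 10 genes were called in any comparison, beside 13.6%, 4.43% and 12.1% of all genes. With the threshold at 1.5-fold, *Atf4* joined *Ddit3* between tw18/tw18 and wild type, and *Herpud1* joined *Ddit3* and *Chac1* between tw18/+ and wild type. *Xbp1* and *Asns* joined *Chac1* between tw18/tw18 and tw18/+. In the same order of comparisons, 40.2%, 20.1% and 39.5% of all genes tested were called at 1.5-fold.

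**Figure D3:**
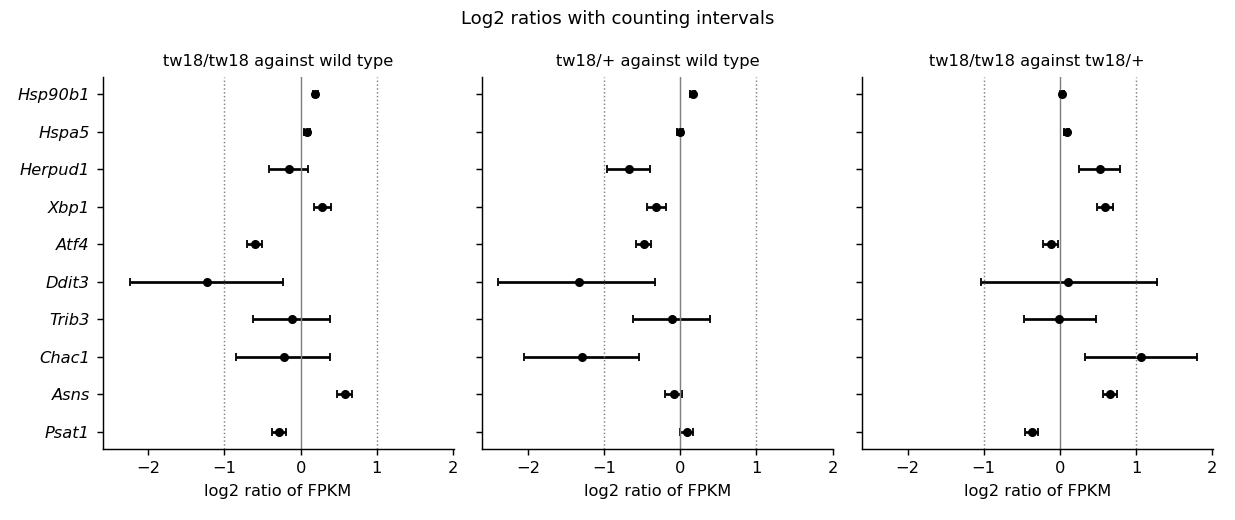
Log2 ratios of FPKM for the 10 genes in the 3 comparisons, with 95% intervals for counting error and dotted lines at the 2-fold threshold. The intervals of *Ddit3* (-2.25 to -0.24 between tw18/tw18 and wild type) are far wider than those of *Hspa5* (0.048 to 0.12).

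The better counted genes were also set among genes of like abundance. Between tw18/tw18 and wild type, genes of 200 to 500 FPKM had a median log2 ratio of -0.36 and ran from -0.80 to 1.04 between their 5th and 95th percentiles (194 genes). *Hspa5* at 0.086 and *Hsp90b1* at 0.19 lay within this range and above its median. *Atf4*, at -0.60, lay inside the range of genes of 50 to 100 FPKM, from -0.84 to 0.97, and so did *Asns*, at 0.58. Between tw18/+ and wild type the range of these genes was narrower, from -0.29 to 0.39, and *Atf4*, at -0.48, lay below it. *Xbp1*, at -0.31, lay within the -0.44 to 0.43 of genes of 20 to 50 FPKM.

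**Figure D4:**
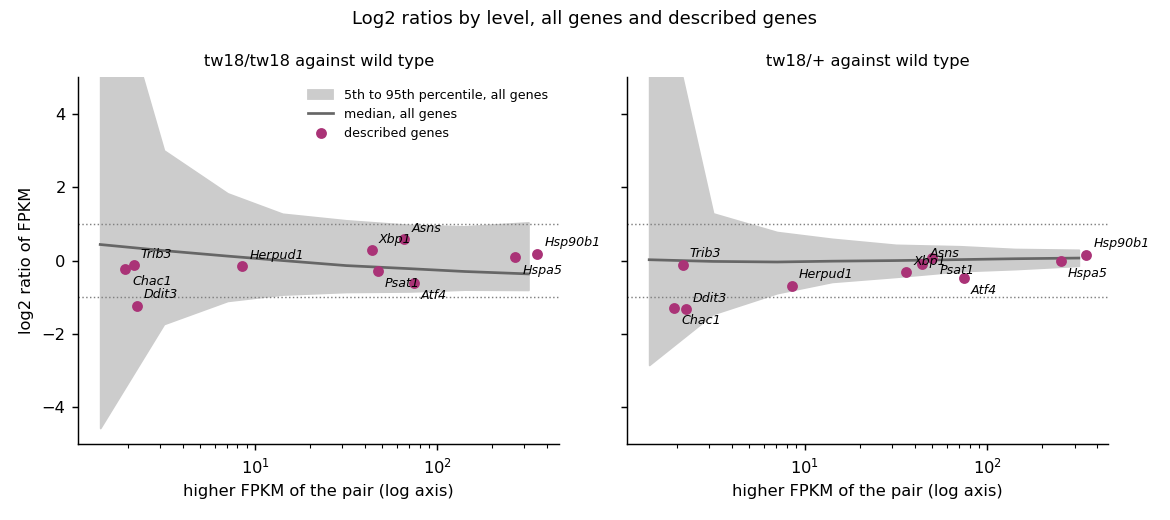
Log2 ratios to wild type of tw18/tw18 (left) and tw18/+ (right) against the higher FPKM of the pair on a log axis, with the 5th to 95th percentiles of all genes shaded by level, their median as a line, the 10 genes as points and dotted lines at the 2-fold threshold. The shading runs off the axis at the lowest levels, and *Atf4* lies below it between tw18/+ and wild type.

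Other genes of the same pathways were examined in 8 lists, 102 genes in all. Between tw18/tw18 and wild type 98 of them were tested, of which 4 were higher (4.08%) and 3 lower (3.06%), with a median log2 ratio of -0.11. Of all genes tested, 15.1% were higher and 6.94% lower. Between tw18/+ and wild type 1 of 96 was higher and 1 lower (1.04% each), where 4.7% and 5.02% of all genes were. Between tw18/tw18 and tw18/+ 5 of 98 were higher (5.10%) and 3 lower (3.06%), where 14.9% and 5.65% of all genes were. With equal FPKM sums the latter numbers were 11 higher and 3 lower. The rescaling also raised the share of all genes called in either direction, from 20.5% to 23.4%. Of the 90 list genes that reached 5 FPKM in wild type or tw18/tw18, 3 were called in either direction between these libraries, where 13.1% of all such genes were. For the counts of the single lists below, the shares of all genes at 2-fold are those given here.

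The ER side of the response was taken first. Of 9 genes for stress sensors and their proteases, 0 were called in tw18/tw18 against wild type, with a median log2 ratio of -0.11. *Creb3l2*, a membrane-bound transcription factor related to ATF6, was at 12.9, 9.43 and 21.4 FPKM in wild type, tw18/+ and tw18/tw18 and was called between the mutants only, at 1.18. In the 22 ER chaperones and folding enzymes, neighbours of *Hspa5* and *Hsp90b1*, 1 was higher in tw18/tw18 than in wild type and 0 were lower, with a median of -0.035. The call was *Ero1lb*, an ER oxidase, at 0.666, 0.489 and 1.92 FPKM. *Dnajc3*, a co-chaperone of *Hspa5*, had 14.1, 10.4 and 19.0 FPKM and was not called. Among 15 genes of ER-associated degradation, to which *Herpud1* is related, 0 were higher and 1 was lower. This was *Derl3*, a Derlin that takes part in moving proteins out of the ER, at 7.81, 9.82 and 2.19 FPKM, with a log2 ratio of -1.84.

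Genes with the ER stress element were also taken as a group, which includes *Hspa5* and *Hsp90b1*. Of the 24 in the table, 19 were tested between tw18/tw18 and wild type, of which 1 was higher and 1 lower. The median log2 ratio of the 19 was 0.19, the value of *Hsp90b1* itself. *Derl3* was the lower gene, and the higher gene was *Zfp57*, a zinc finger protein of imprinting control, at 8.99, 15.8 and 21.5 FPKM. Between tw18/+ and wild type 0 of 19 were called, where 4.7% of all genes were higher and 5.02% lower. *Calr*, the lectin chaperone calreticulin, was near *Hspa5* and *Hsp90b1* in level and had 264, 288 and 344 FPKM. For the C/EBP-ATF element, 17.5% of 257 genes tested were higher in tw18/tw18 than in wild type and 5.45% were lower, and for the UPR element 13.9% and 4.95% of 101. The background was 15.1% and 6.94%.

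On the eIF2 side, 0 of 11 genes for eIF2 kinases, phosphatase subunits and eIF2B were called in any comparison. Their median log2 ratio was -0.26 in tw18/tw18 and 0.065 in tw18/+ against wild type. *Eif2s1*, the subunit of eIF2 that is phosphorylated, had 81.2, 89.7 and 63.3 FPKM in wild type, tw18/+ and tw18/tw18.

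Of 13 regulators and secreted factors related to ATF4, 10 were tested between tw18/tw18 and wild type, where 1 was higher and 2 were lower. *Ddit4*, an inhibitor of mTORC1 signalling, had 5.33, 4.09 and 11.1 FPKM, a log2 ratio of 1.06 in tw18/tw18. *Sesn2*, a sensor of leucine that also restrains mTORC1, had 11.8, 8.87 and 20.3 FPKM (0.78), and *Atf5*, a relative of *Atf4*, 7.54, 7.50 and 11.7 FPKM (0.63). Both genes called lower were of low level, *Nupr1* at 2.198, 2.82 and 0.833 FPKM and *Adm2* at 1.73 and 1.29 FPKM and listed at 0 in tw18/tw18. *Atf3*, *Gdf15* and *Fgf21*, which like *Ddit3* and *Trib3* mark strong stress, were under 1 FPKM in every library and were not tested.

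The amino acid genes were mixed, as *Asns* and *Psat1* were. Among 10 tested enzymes of amino acid and one-carbon metabolism, 1 was higher in tw18/tw18 than in wild type and 0 were lower. *Cth*, which makes cysteine, had 7.96, 17.1 and 16.9 FPKM, a log2 ratio of 1.11 in tw18/+ and 1.09 in tw18/tw18. *Psph*, which acts next to *Psat1* in serine synthesis, had 15.2, 14.0 and 10.01 FPKM, and *Mthfd2*, of the mitochondrial folate pathway, 29.2, 23.4 and 18.3 FPKM. Neither was called.

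Of 9 amino acid transporters, 1 was higher and 0 were lower in tw18/tw18 against wild type, with a median of -0.50. The higher gene was the glycine transporter *Slc6a9*, at 0.243, 0.571 and 2.25 FPKM. The arginine and lysine transporter *Slc7a1* had 11.5, 4.91 and 5.83 FPKM and was called lower in tw18/+ only, with log2 ratios of -1.23 and -0.98. For 12 cytosolic tRNA synthetases, many of which ATF4 is known to regulate, 0 were called in any comparison. Their median log2 ratio between tw18/tw18 and wild type was -0.13, beside -0.14 for all genes of 20 to 50 FPKM and -0.22 for those of 50 to 100 FPKM. An example was *Mars*, the gene beside *Ddit3*, at 50.3, 47.2 and 31.7 FPKM. With equal FPKM sums, which add 0.21 to each ratio of tw18/tw18 to wild type, the medians of the sensors, the ER chaperones and the synthetases would lie above 0, and those of the eIF2 list and the transporters would remain below it.

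**Figure D5:**
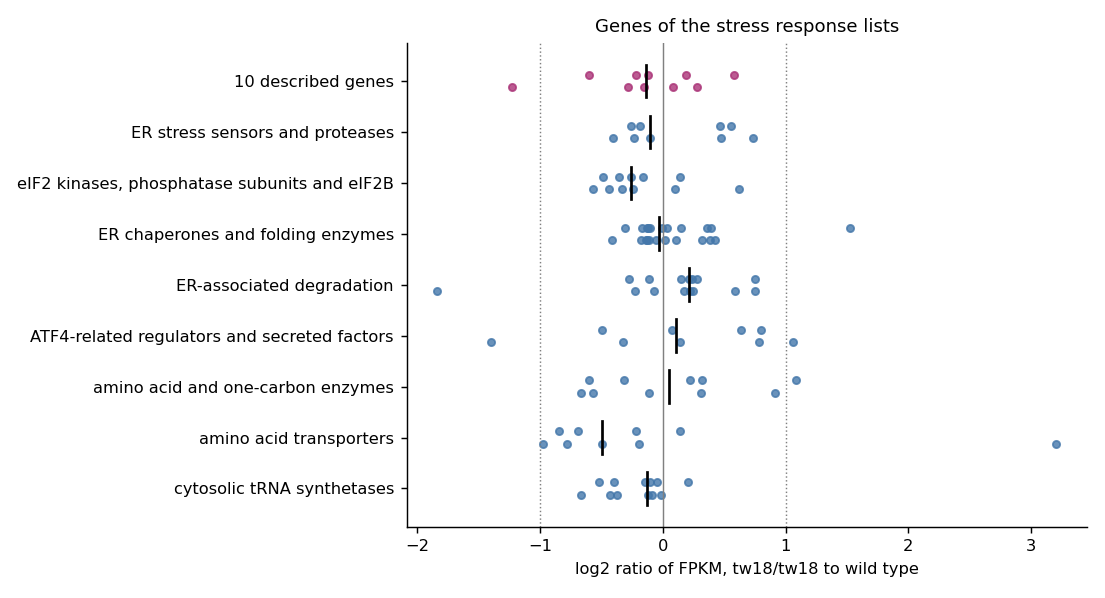
Log2 ratios of the genes in the 8 pathway lists and of the 10 genes between tw18/tw18 and wild type, 1 point per gene tested, with the list median as a black bar and dotted lines at the 2-fold threshold. Most points lie within the threshold, and the median of the amino acid transporters is lowest, at -0.50; *Adm2*, listed at 0 in tw18/tw18, has no finite ratio and is not drawn.

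*Ddit3* had the largest log2 ratio of the 10 genes between tw18/tw18 and wild type, and the genes most like it in both ratios to wild type were looked for among 7041 genes with at least 10 FPKM in a library. By the distance between the pairs of log2 ratios, over 3 libraries, the nearest were *Slc7a1* (0.27), *Pex3* (0.31), *Speg* (0.35), *Snora78* (0.36) and *Sema3e* (0.39). *Pex3* had 12.8, 6.21 and 5.81 FPKM and *Sema3e* 11.2, 5.58 and 5.62 FPKM. Because they were picked by these ratios, their lower value in both mutant libraries follows from the choice. Each of them reached 10 FPKM in wild type only. The *Ddit3* ratios rest on about 25, 14 and 15 fragments, with counting intervals wider than these distances. A likeness over 3 libraries is a description only.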

How the data were processed

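RNA of E6.5 embryos was measured in 3 libraries, 1 for each genotype, named by the labels. Reads were mapped by the authors to mm10 (GRCm38), and FPKM values from Cuffdiff were deposited, 1 value per gene symbol and library; the submitters' processing notes list TopHat2, Bowtie 1.0.0 and Cufflinks 2.2.1. FPKM divides fragments by transcript length and library size. The annotation and the library normalization are not given in the sources used here. Libraries were of total RNA, amplified with 14 PCR cycles.

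Log2 ratios were taken from the deposited FPKM values without a pseudocount, where the higher value of a pair was at least 1, and called at 2-fold. Fragment numbers were estimated from the spacing of low FPKM values, with annotated transcript lengths less 150 bp: between 71.1% and 72.8% of the low values lay within 0.2 of a whole number, so they are approximate. Intervals are exact 95% intervals (Clopper-Pearson for ratios, Poisson for levels). From each list, the 3 genes with the largest ratio between tw18/tw18 and wild type and at least 10 FPKM could be named; called genes and other examples were chosen after their values were seen. The 10 genes, the lists and the motifs were chosen with earlier results of these data known. Positions came from GENCODE M21 and promoters from RefSeq GRCm38.p6. Alternatives were pseudocounts of 0.1 and 1, other minimum levels, 3 rescalings and a fold of 1.5. Python 3.11.15, numpy 2.4.6, pandas 2.3.3, scipy 1.17.1 and matplotlib 3.10.9 were used.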

Additional observations from a re-analysis of the deposited data

How the results depend on the processing

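No library could be left out and no paired analysis was possible because there is 1 library per genotype, so no alternative bears on the spread between embryos. With 1 added to each FPKM the number of the 10 genes called went from 1 to 0 between tw18/tw18 and wild type, from 2 to 0 between tw18/+ and wild type and from 1 to 0 between tw18/tw18 and tw18/+, and with a minimum of 5 FPKM to 0, 0 and 0. Adding 0.1 took the last to 0. At 1.5-fold the numbers were 2, 3 and 3, beside 40.2%, 20.1% and 39.5% of all genes tested. For the genes of the 8 lists, the number called between tw18/tw18 and wild type went from 7 to 3 with 1 added, 3 at 5 FPKM and 23 at 1.5-fold. Between tw18/+ and wild type it went from 2 to 5 with no minimum and 7 at 1.5-fold. Between tw18/tw18 and tw18/+ it went from 8 to 4 at 5 FPKM, 14 with equal FPKM sums, 13 with equal sums without the 13 most abundant genes, and 21 at 1.5-fold. Equal sums raised the number higher between tw18/tw18 and tw18/+ from 5 to 11, with 3 lower in both. The share of all genes called in either direction rose with them from 20.5% to 23.4%. Of 150 ratios of the 10 genes under pseudocounts and scalings, 120 stayed within the counting interval of the reported value and 30 did not. The sign changed under a scaling for 4 of 30 ratios: *Trib3* and *Herpud1* between tw18/tw18 and wild type, and *Atf4* and *Trib3* between tw18/tw18 and tw18/+. For *Ddit3* the log2 ratio ran from -1.18 to -0.73 between tw18/tw18 and wild type and from -1.37 to -0.78 between tw18/+ and wild type. *Chac1* ran from -1.33 to -0.71 between tw18/+ and wild type and from 0.57 to 1.31 between tw18/tw18 and tw18/+. Depth limits *Ddit3*, *Trib3* and *Chac1*, each with at most 78 fragments in a library.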

Other observations

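The cytosolic and mitochondrial heat shock proteins, which answer to unfolded protein outside the ER, were examined beside *Hspa5* and *Hsp90b1*. Of 11 genes tested between tw18/tw18 and wild type, 2 were higher by 2-fold or more and 0 were lower, with a median log2 ratio of -0.36, beside 15.1% higher and 6.94% lower of all genes tested, so that 2 of 11 is near the background. Between tw18/+ and wild type 0 of 10 were called, with a median of 0.049, where 4.7% of all genes were higher and 5.02% lower. *Hspb1*, a small heat shock protein, had 14.8, 14.8 and 42.3 FPKM in wild type, tw18/+ and tw18/tw18, a log2 ratio of 1.52 between tw18/tw18 and wild type. *Hspa1b*, the heat-inducible HSP70, was the other gene called, at 0.773, 0.388 and 1.73 FPKM. *Dnajb1*, a co-chaperone of HSP70, had 22.5, 25.9 and 39.0 FPKM. The most abundant members had lower values in tw18/tw18 without a call. All genes of 200 to 500 FPKM, a range that holds *Hspd1* but not *Hspa8* or *Hsp90aa1*, had a median log2 ratio of -0.36. *Hspd1*, at -0.80, lay at the 5th percentile of that range. *Hspa8*, the constitutive HSP70, had 2104, 2215 and 1631 FPKM, *Hsp90aa1* 1205, 1231 and 857 FPKM, and the mitochondrial chaperonin *Hspd1* 416, 416 and 239.6 FPKM.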
